A study of Mus musculus with 42 samples.

Results

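Expression was followed for 8 genes that tie meiotic telomeres to the nuclear envelope and move them there. They are Majin, Terb1, Terb2, Sun1, Sun2, Kash5, Spdya and Cdk2. The cells were sorted for spermatogonia from control and mutant testes. The genes were selected by name for this role, by their gene IDs, and make up 8 of the 27179 genes of the count table. The rule itself holds no threshold, but the list was drawn up with earlier results of these 12 libraries known. The fold changes and false discovery rates (FDRs) given here therefore describe these genes and are no independent evidence for the choice.

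In prophase of the first meiotic division, telomeres attach to the inner nuclear membrane and are pulled along it by motors in the cytoplasm, which helps homologous chromosomes to find each other. TERB1 binds the telomere through the shelterin subunit TRF1, TERB2 bridges TERB1 to MAJIN, and MAJIN sits in the inner nuclear membrane. SUN1 and SUN2 span that membrane and bind KASH5 in the outer membrane, which recruits dynein. The kinase CDK2 is brought to telomeres by its cyclin-like activator Speedy A, the product of Spdya. Mice that lack Terb1, Terb2, Majin, Sun1, Kash5, Spdya or Cdk2 are known to be infertile, with spermatocytes that arrest in meiotic prophase. SUN1, SUN2 and CDK2 are also used by many somatic and mitotic cells, whereas Majin, Terb1, Terb2, Kash5 and Spdya are known mainly from meiotic germ cells.

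The RNA was taken from Thy1+ and c-Kit+ cells of male C57BL/6J testes at 10 dpp, enriched with magnetic beads. By the methods, c-Kit+ cells were isolated first and Thy1+ cells from the flow-through, so both populations can come from the same testes. The paper describes the Thy1+ population as undifferentiated and the c-Kit+ population as differentiating spermatogonia, and reports purity checks. Controls were Ddx4-Cre; Chd8 +/F and mutants Ddx4-Cre; Chd8 F/- littermates, with 3 libraries in each of the 4 groups, so that all animals carried Ddx4-Cre and the controls also carried a floxed allele that Cre can delete. Ddx4-Cre acts in germ cells, and somatic cells that the beads retained kept their floxed alleles. By these genotypes, such cells held a floxed and a minus allele in mutants and a floxed and a wild-type allele in controls. The methods give 3 male pups as the source of the sorted cells for each analysis, without saying whether these 3 were pooled in each library or gave 1 library each, so the spread between libraries may be in part technical. The totals ran from 32266861 to 45396233 counts per library. Chd8 itself had a mean level of 269, 274, 281 and 305 CPM (counts scaled to a common library size) in Thy1+ control, Thy1+ mutant, c-Kit+ control and c-Kit+ mutant libraries. The floxed exons are only a small part of this transcript, so this gene-level count does not check the genotype labels. Thy1 and Kit followed the sort: Thy1 had a mean of 12.6 and 0.685 CPM in Thy1+ and c-Kit+ controls, and Kit had 288 and 666 CPM. In Thy1+ controls 6 stromal markers summed to 11000 to 14300 CPM, beside 1490 to 2170 CPM for 8 germ cell markers. In c-Kit+ controls these sums were 1790 to 2240 and 2300 to 2710 CPM. The Thy1+ libraries thus held much stromal RNA.

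All 8 genes were detected in every library. Majin (gene ID 622554) lies on the plus strand of chromosome 19 at chr19:6184410-6224219 (mm10) and Terb2 (74401) on the plus strand at chr2:122186272-122206393. Terb1 (320022) lies on the minus strand at chr8:104446719-104509887 and Kash5 (384619) on the minus strand at chr7:45183676-45204892. Sun1 (77053) is at chr5:139200637-139249839 on the plus strand and Sun2 (223697) at chr15:79724068-79742536 on the minus strand. Spdya (70891) is at chr17:71552061-71589533 on the plus strand and Cdk2 (12566) at chr10:128697939-128705051 on the minus strand. Counts were taken over all RefSeq exons of a gene, which sum to between 1613 bases for Majin and 4133 bases for Sun1. Of the 2198 exonic bases of Spdya, 402 (18.3%) overlap exons of Trmt61b on the opposite strand. The counting command sets no strand and leaves out reads that overlap more than 1 gene, so reads from this stretch are missing from the Spdya counts. The other 7 genes share no exonic base with another gene of the table.

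The promoters of 3 genes that fell in c-Kit+ mutants and of Cdk2, which was not called, are shown to set the genes side by side. RefSeq promoter windows (GRCm38.p6, the build of mm10) were matched for 6 of the 8 genes, not for Majin or Terb2. Each sequence is the 250 bases before the annotated transcript start, 5′ to 3′ on the strand of the gene, at chr8:104509888-104510137 (Terb1), chr7:45204893-45205142 (Kash5), chr17:71551811-71552060 (Spdya) and chr10:128705052-128705301 (Cdk2). Capitals mark matches to any of the 6 motifs searched.
Terb1: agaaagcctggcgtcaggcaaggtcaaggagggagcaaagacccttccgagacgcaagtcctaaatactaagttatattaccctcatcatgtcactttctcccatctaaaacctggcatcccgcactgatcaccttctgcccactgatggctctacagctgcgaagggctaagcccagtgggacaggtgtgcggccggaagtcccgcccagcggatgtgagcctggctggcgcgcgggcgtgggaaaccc
Kash5: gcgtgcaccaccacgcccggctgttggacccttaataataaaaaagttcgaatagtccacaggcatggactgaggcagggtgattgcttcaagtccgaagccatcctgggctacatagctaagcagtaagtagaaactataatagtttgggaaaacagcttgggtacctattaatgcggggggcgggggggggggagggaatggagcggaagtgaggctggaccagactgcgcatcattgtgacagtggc
Spdya: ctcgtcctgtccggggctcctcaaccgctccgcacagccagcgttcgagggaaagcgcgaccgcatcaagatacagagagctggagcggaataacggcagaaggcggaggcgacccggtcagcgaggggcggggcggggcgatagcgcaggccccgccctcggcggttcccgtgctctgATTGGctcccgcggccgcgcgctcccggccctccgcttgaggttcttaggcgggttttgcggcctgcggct
Cdk2: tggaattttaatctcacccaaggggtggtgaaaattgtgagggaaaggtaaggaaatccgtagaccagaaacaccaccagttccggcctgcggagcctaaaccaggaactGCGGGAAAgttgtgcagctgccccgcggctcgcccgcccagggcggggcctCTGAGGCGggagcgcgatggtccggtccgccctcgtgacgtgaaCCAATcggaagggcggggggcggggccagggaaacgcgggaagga
The motifs, searched on both strands, were the E-box CACGTG, the E2F forms TTTCCCGC, TTTGGCGC and TTTCGCGC, the cyclic AMP response element TGACGTCA, CNCCTCAG (bound by STRA8), the MYB form AACTGNC and CCAAT. They were found in 6.05%, 1.59%, 1.62%, 6.38%, 10.6% and 34.5%, respectively, of the first windows of 27018 genes. The windows of Terb1 and Kash5 hold no match to any of them. The Spdya window holds 1 CCAAT box in reverse orientation, 71 bases before the start. The Cdk2 window holds an E2F form starting 140 bases, a CNCCTCAG match 89 bases and a CCAAT box 45 bases before the start, with no overlap among them. The windows at the gene starts of Sun1 and Sun2 hold 2 CCAAT boxes each. The windows also differed in base composition, with meiotic genes on both sides of the shared ones. The ratio of observed to expected CpG was 0.542 for Kash5, 0.619 for Terb1 and 1.07 for Spdya, and it was 0.868 for Cdk2, 1 for the first Sun1 window and 0.995 for Sun2, against a median of 0.378 over all 27018 genes. The quartiles of this ratio over all genes were 0.165 and 0.726. A motif match says only that these letters are present.

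Read per exon length, as CPM per kilobase of exon (RPKM), the shared genes stood above the meiotic ones. In Thy1+ controls, Cdk2 (47.2 ± 3.76 RPKM, mean ± SD, n = 3 here and below), Sun1 (38.9 ± 3.91) and Sun2 (21.1 ± 2.77) did not overlap with each other or with any other member. Kash5 (6.96 ± 2.68), Majin (5.06 ± 2.35), Terb1 (4.22 ± 2.12), Terb2 (2.64 ± 1.06) and Spdya (2.48 ± 0.995) followed, and each of these overlapped with its neighbour in the order. In c-Kit+ controls the top order was the same for Cdk2 (65.6 ± 2.91), Sun1 (41.2 ± 4.1) and Sun2 (18.6 ± 1.8). Kash5 reached 16.5 ± 4.75 RPKM there and overlapped with Sun2, Majin reached 13.8 ± 2.75, Terb1 10.3 ± 3.77, Spdya 7.5 ± 2.58 and Terb2 5.43 ± 1.94. In c-Kit+ mutants Kash5 (4.89 ± 0.581), Terb1 (2.4 ± 0.253), Majin (1.94 ± 0.176), Terb2 (1.25 ± 0.314) and Spdya (1.16 ± 0.261) all lay well below Sun2 (19.9 ± 0.951).

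**Figure D1:**
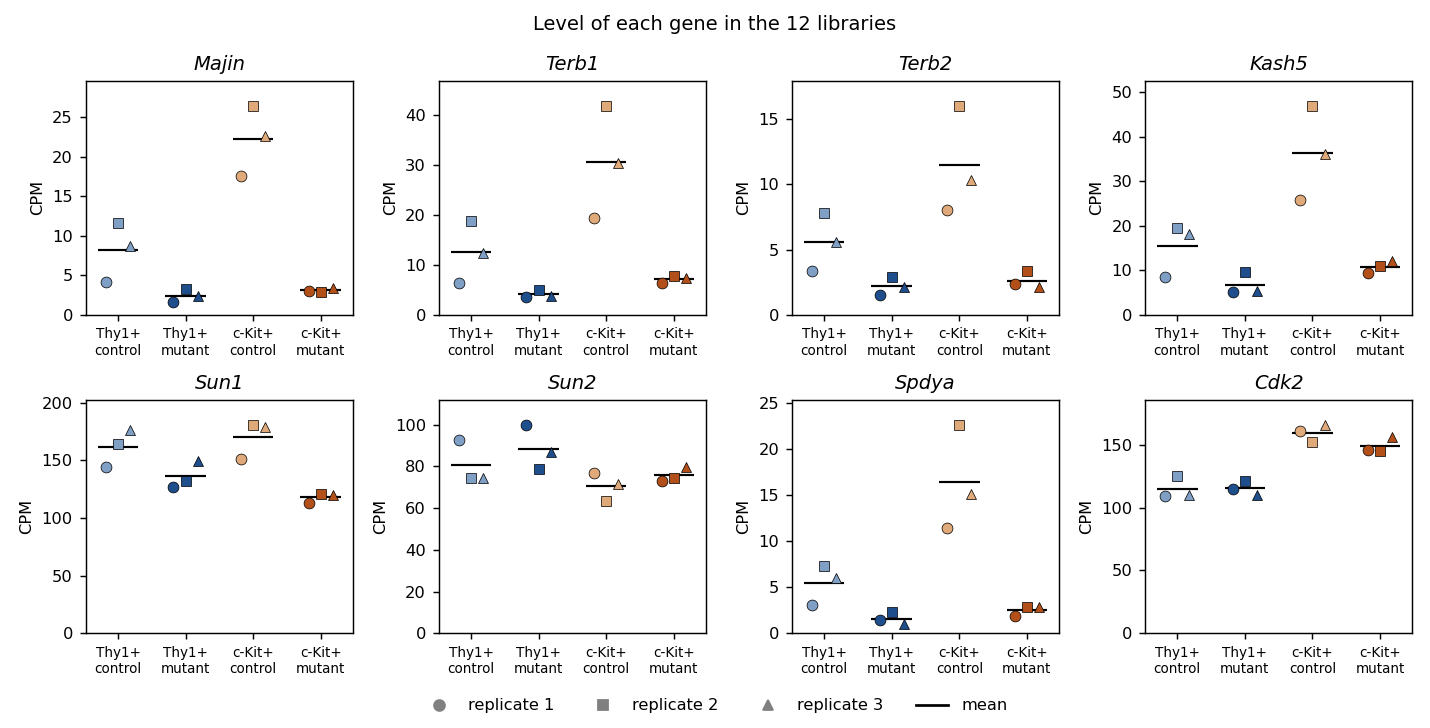
Level of each of the 8 genes in CPM (vertical axes, linear, starting at 0) in the 4 groups of 3 libraries, with a symbol per replicate number and a bar at the group mean. Majin, Terb1, Terb2, Kash5 and Spdya were highest in c-Kit+ controls and low in both mutant groups, while Sun2 and Cdk2 lay close together within each population.

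The first question was what the loss of Chd8 does to these genes in c-Kit+ cells. Throughout, a gene was called at an FDR under 0.05 (edgeR quasi-likelihood test, Benjamini-Hochberg over all genes tested) and an absolute log2 fold change over 0.5. In c-Kit+ cells, 6 of the 8 genes were lower in mutants and none was higher, where 7.41% of the 17134 genes tested were called lower. The telomere-binding complex, its cytoskeletal adaptor and the Cdk2 activator fell furthest, Sun1 fell slightly, and Sun2 and Cdk2 did not pass the test. The median log2 fold change of the 8 was -1.99, beside 0.01 for all genes tested. The mutant libraries lay below all controls, without overlap, for the same 6 genes, as they did for 20.6% of all genes tested.

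Majin, the membrane anchor, had 17.6, 26.4 and 22.6 CPM in c-Kit+ controls and 3.04, 2.9 and 3.44 CPM in mutants. The lowest control was thus far above the highest mutant, and the log2 fold change was -2.89 ± 0.17 (SE; FDR 3.09e-05). Terb1, the subunit that binds shelterin, had 19.4, 41.7 and 30.3 CPM in controls and 6.26, 7.71 and 7.26 CPM in mutants. Control replicate 1 was the lowest of the controls and still above every mutant, and Terb1 fell by 2.16 on the log2 scale (FDR 0.000247). Terb2, the bridge between both, had 8.04, 16 and 10.3 CPM in controls and 2.36, 3.38 and 2.14 CPM in mutants, with a log2 fold change of -2.17 (FDR 0.000374). The 3 subunits therefore fell together, Majin by the largest amount. Majin made up 43.1% to 51.2% of the summed RPKM of the complex in c-Kit+ controls and 29.9% to 38.1% in mutants, and Terb1 made up 30.9% to 37% and 41.4% to 43.9%.

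Kash5, the adaptor for dynein, had 25.9, 46.9 and 36.2 CPM in c-Kit+ controls and 9.41, 11 and 12 CPM in mutants, a log2 fold change of -1.81 (FDR 0.000232). The groups did not overlap. Sun1 had 151, 181 and 179 CPM in controls and 113, 121 and 120 CPM in mutants. It fell by 0.59 ± 0.08 on the log2 scale (FDR 0.000497), close to the minimum of 0.5 used for a call, and was no longer called when libraries were scaled to the summed counts of 8 germ cell markers (-0.23, FDR 0.12), a scaling that moves the median of all genes to 0.367. Sun2, its paralog, had 77, 63.5 and 71.7 CPM in controls and 73.2, 74.2 and 79.9 CPM in mutants, so the groups overlapped (log2 fold change 0.04, FDR 0.727). With germ cell marker scaling the Sun2 value was 0.4 (FDR 0.0364), still under the minimum for a call. Sun1 per 100 of Sun2, by RPKM, was 181 to 262 in controls and 138 to 150 in mutants, without overlap. Kash5 per 100 of Sun1 was 32.1 to 48.4 in controls and 15.6 to 18.7 in mutants.

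Spdya had 11.5, 22.7 and 15.2 CPM in c-Kit+ controls and 1.89, 2.9 and 2.87 CPM in mutants, a log2 fold change of -2.74 (FDR 0.000174). Its kinase partner Cdk2 had 161, 152 and 166 CPM in controls and 146, 145 and 156 CPM in mutants. The ranges of Cdk2 overlapped, and its log2 fold change of -0.16 (FDR 0.0702) turned to 0.2 with germ cell marker scaling. Spdya per 100 of Cdk2, by RPKM, was 7.93 to 16.5 in controls and 1.43 to 2.21 in mutants. All 6 called genes remained called when any 1 of the 6 libraries was left out.

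**Figure D2:**
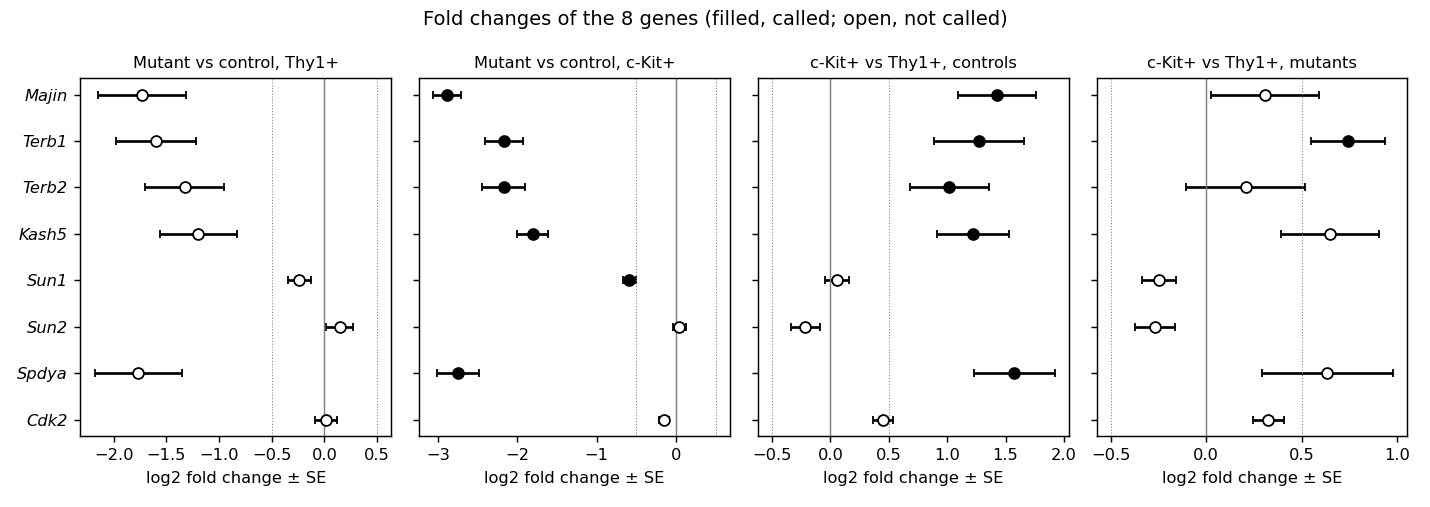
Log2 fold change with its standard error (horizontal axes, different ranges) of the 8 genes in 4 comparisons, from edgeR fits of 3 against 3 libraries; filled points were called and dotted lines mark 0.5 and -0.5. Without a replicate block, 6 genes were called lower in c-Kit+ cells and none in Thy1+ cells, and between control populations 5 were called higher in c-Kit+ cells. With the block, which is not drawn, 5 genes were called lower in Thy1+ cells, as were 4.92% of all genes tested.

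In the Thy1+ fit without a replicate block, none of the 8 genes was called lower or higher, as for 0% of the 17416 genes tested. There 2151 genes had an unadjusted p under 0.05. The fit with the block, given below, called 5 of the 8 lower, where 4.92% of all genes tested were. Majin had 4.12, 11.6 and 8.74 CPM in Thy1+ controls and 1.66, 3.27 and 2.4 CPM in mutants (log2 fold change -1.73 ± 0.42, FDR 0.24). Terb1 had 6.29, 18.8 and 12.3 CPM in controls and 3.58, 4.94 and 3.76 CPM in mutants (-1.6, FDR 0.239). Terb2 had 3.36, 7.84 and 5.55 CPM in controls and 1.52, 2.93 and 2.17 CPM in mutants (-1.33, FDR 0.293). Every mutant library was below every control for these subunits, but control replicate 1 was the lowest control in all of them. The same library held the most Sertoli cell marker RNA of the Thy1+ controls, with a sum of 8 markers of 1960 CPM against 408 and 439 CPM, and among the mutants replicate 1 had 2540 CPM against 826 and 869 CPM. The part of these markers in the spread was not tested. Spdya had 3.06, 7.35 and 5.97 CPM in controls and 1.41, 2.29 and 1.04 CPM in mutants (-1.77, FDR 0.23), again without overlap. Kash5 had 8.59, 19.4 and 18.2 CPM in controls and 5.1, 9.61 and 5.25 CPM in mutants (-1.2, FDR 0.313), and mutant replicate 2 lay above control replicate 1. Thus 4 of the 8 genes were lower without overlap, as were 10.7% of all genes tested.

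The other members differed less in Thy1+ cells. Sun1 had 144, 164 and 176 CPM in controls and 127, 132 and 149 CPM in mutants (-0.24, FDR 0.427; 0.14 with germ cell marker scaling). Sun2 had 92.7, 74.6 and 74.2 CPM in controls and 100, 78.6 and 86.8 CPM in mutants (0.14, FDR 0.642). Cdk2 had 109, 125 and 110 CPM in controls and 115, 121 and 110 CPM in mutants (0.01, FDR 0.954; -0.02 with scaling by library size only). All 3 genes had overlapping groups.

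Libraries of the same replicate number varied together in Thy1+ cells, and with the replicate number as a block 5 of the 8 genes were called lower, where 4.92% of all genes tested were. These were Majin (blocked log2 fold change -1.68, FDR 1.28e-05), Terb1 (-1.5, FDR 3.14e-05), Kash5 (FDR 8.2e-05), Spdya (FDR 0.00014) and Terb2 (FDR 0.000219). Sun1 had a blocked FDR of 0.00345 with a change under the minimum, and Sun2 and Cdk2 were not called. Without a block, DESeq2 called the same 5 genes, and the edgeR exact test and a fit of all 12 libraries called Majin, Terb1 and Spdya. The paper used the exact test and reported both higher and lower genes in Thy1+ mutants. No share of all genes is set beside these counts, so they show only that the calls depend on the method.

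Whether the genotype effect differed between the populations was tested as an interaction over all 12 libraries. None of the 8 genes passed, as for 0% of 18002 genes tested called lower, with 1804 genes at an unadjusted p under 0.05; DESeq2 called none of the 8 either. All 8 estimates were negative, from -1.1 for Majin (FDR 0.473) to -0.04 for Sun2 (FDR 0.964), and the Sun2 value changed sign when single libraries were left out. The larger fold changes in c-Kit+ cells are thus not shown to differ from those in Thy1+ cells.

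The next comparison asked how the genes differ between the populations in controls. In c-Kit+ controls 5 of the 8 genes were higher than in Thy1+ controls, where 7.08% of 17350 genes tested were called higher. They were Spdya (log2 fold change 1.58 ± 0.35, FDR 0.00878), Majin (1.43, FDR 0.0115), Terb1 (1.27, FDR 0.0311), Kash5 (1.22, FDR 0.0162) and Terb2 (1.02, FDR 0.0442). No c-Kit+ control overlapped with a Thy1+ control for any of them, but the gap was narrow for Terb1 and Terb2, where the highest Thy1+ control had 18.8 and 7.84 CPM and the lowest c-Kit+ control 19.4 and 8.04 CPM. Cdk2 also lay higher in every c-Kit+ control than in any Thy1+ control, with a log2 fold change of 0.45 (FDR 0.00454) under the minimum for a call, and of -0.05 with germ cell marker scaling. Groups did not overlap, c-Kit+ being higher, for 6 of the 8 genes and for 24.8% of all genes tested. Sun1 (0.06, FDR 0.692; -0.46 with germ cell marker scaling) and Sun2 (-0.21, FDR 0.208) were not called.

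With the replicate number as a block, the 5 genes higher in c-Kit+ controls were called as well, as were 1454 of 17350 genes. Their blocked FDRs ran from 4.59e-05 (Terb1) to 0.000811 (Terb2), and no library was left out of that fit. Without the block, the count of 5 depended on single libraries and on the scaling. It was 2 without c-Kit+ control replicate 2, where Majin and Spdya stayed called, and 3 without Thy1+ control replicate 3 or c-Kit+ control replicate 3, where Terb1 and Terb2 were lost. With germ cell marker scaling Kash5 and Terb2 were lost and Sun2 was called lower (-0.74, FDR 0.0212). Both populations also differed in somatic markers, with a stromal sum of 11000 to 14300 CPM in Thy1+ and 1790 to 2240 CPM in c-Kit+ controls, and the part of these in the comparison was not tested.

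In mutants, Terb1 was the only 1 of the 8 genes called higher in c-Kit+ than in Thy1+ cells (log2 fold change 0.74, FDR 0.0241), where 5.03% of 17346 genes tested were. It lost the call without Thy1+ mutant replicate 1 or 3 or c-Kit+ mutant replicate 2 or 3, and in the fit of all 12 libraries. Without Thy1+ mutant replicate 2, Kash5 and Spdya were called as well. Kash5 (0.65, FDR 0.0911), Spdya (0.64, FDR 0.194), Majin (0.31, FDR 0.432) and Terb2 (0.21, FDR 0.639) did not pass, and the values of Majin (-0.19) and Terb2 (-0.31) turned negative with germ cell marker scaling, under which Terb1 lost its call and Sun1 and Sun2 were called lower. Terb1 and Cdk2 were higher in c-Kit+ mutants without overlap, as were 26.7% of all genes tested. Sun1 was lower without overlap, with 113 to 121 CPM against 127 to 149 CPM, as were 23.3% of all genes tested, but did not pass the test (-0.25, FDR 0.0665), and neither did Sun2 (-0.27, FDR 0.0882). Cdk2 had a log2 fold change of 0.33 (FDR 0.0199), under the minimum, and of -0.24 with germ cell marker scaling. The comparisons of genotypes and of populations share libraries, and their values are set side by side only.

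Within libraries, the levels per length of the members were set against each other and against the wider meiotic program. The summed RPKM of Majin, Terb1 and Terb2 per 100 of the summed RPKM of 22 axis, synapsis and recombination genes was 2.34 to 2.79 in c-Kit+ controls and 1.02 to 1.15 in c-Kit+ mutants. In Thy1+ cells it was 1.62 to 2.4 in controls and 1.11 to 1.31 in mutants. Neither population overlapped between genotypes. The sum of the 22 genes is weighted to abundant ones such as Sycp3 (145 RPKM in c-Kit+ controls, log2 fold change -1.36 in c-Kit+ mutants). Meiob (5.87 RPKM) adds little to it and changed by -3.69. The ratio thus does not show that the complex fell more than each meiotic gene. Per 100 of Terf1, the shelterin subunit to which TERB1 binds, the complex reached 85.9 to 128 in c-Kit+ controls and 21.7 to 25.9 in mutants.

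**Figure D3:**
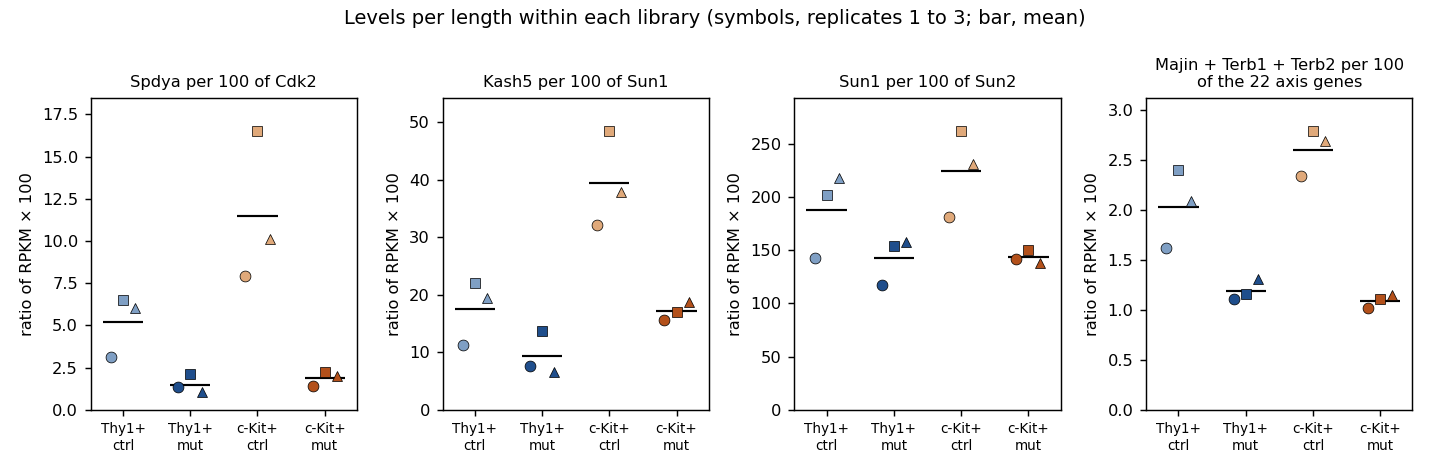
Ratios of RPKM within each library, times 100 (vertical axes from 0), for Spdya to Cdk2, Kash5 to Sun1, Sun1 to Sun2, and the Majin, Terb1 and Terb2 sum to the sum of 22 axis genes; symbols are replicates and bars are group means. In c-Kit+ cells all 4 ratios were lower in every mutant than in any control, and in Thy1+ cells this held for the ratios of Spdya to Cdk2 and of the complex to the axis genes.

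Partners of the members were followed as lists. Of the 22 axis, synapsis and recombination genes, 21 were called lower and none higher in c-Kit+ mutants (median log2 fold change -1.27). Over all genes tested, 7.41% were called lower there. Meiob, a recombination factor (-3.69, FDR 0.000289), Prdm9, the histone methyltransferase that sets recombination sites (-2.66, FDR 0.000144), the cohesin subunit Rad21l (-2.4, FDR 0.000154) and the axis protein Sycp2 (-1.91, FDR 0.000209) changed most. Mei4 was the gene not called (-0.31, FDR 0.0705). Of 6 regulators of meiotic entry that the table lists, 5 were called lower (median -0.77). Among them Meioc (-3.04, FDR 8.7e-05) and Ythdc2 (-0.88, FDR 0.000664) encode partners that promote meiotic prophase, Mybl1 (-1.02, FDR 0.00553) a transcription factor of spermatocytes, and Stra8 (-0.67, FDR 0.00041) the retinoic acid-induced factor of meiotic entry.

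The lists of telomere capping genes and of other LINC and lamina genes had medians near 0 in c-Kit+ mutants. Of 12 genes of telomere capping, 3 were called lower and 1 higher in c-Kit+ mutants (median -0.15). Over all genes tested, 7.41% were called lower and 14.8% higher. The F-box gene Fbxo47, which also acts in meiotic cells (-2.08, FDR 0.000495), Tinf2, which encodes the shelterin subunit TIN2 (-0.97, FDR 8.7e-05), and the helicase gene Rtel1 (-0.65, FDR 0.000243) fell, and Stn1, a subunit of the CST complex, rose (0.53, FDR 0.0106). Terf1 had a log2 fold change of -0.28 (FDR 0.0304), under the minimum. Of 16 tested genes of other LINC proteins and the lamina, 2 were called lower, Spag4, which encodes a SUN-domain protein (-0.94, FDR 0.000722), and the inner membrane gene Lemd3 (-0.57, FDR 0.00127), and 1 higher, the nesprin gene Syne3 (0.88, FDR 0.00673). Syne1 (0.48, FDR 0.00612) and Syne2 (0.48, FDR 0.00399), whose products pair with SUN1 and SUN2 in other cells, stayed under the minimum. The median of this list was -0.004.

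Of 19 genes of cytoplasmic dynein and dynactin, the motor that KASH5 recruits, Dync1i1 was called higher (0.75, FDR 0.018) and none was called lower (median 0.04). The heavy chain gene Dync1h1 had a log2 fold change of -0.41 (FDR 0.00248). Of 16 regulators of Cdk2, cyclin E2 (Ccne2) was called lower (-1.04, FDR 0.000672) and the inhibitor p27 (Cdkn1b) higher (1.04, FDR 0.000648), with a median of -0.09. Ccne1 (-0.28, FDR 0.127), Ccna1 (-0.2, FDR 0.516) and Ccna2 (-0.1, FDR 0.227) were not called. Without a block, no gene of these lists was called in Thy1+ cells, where list medians on the log2 scale were -0.8 for the axis genes, -0.39 for the entry regulators, -0.06 for telomere capping, -0.03 for the LINC and lamina genes, 0.09 for dynein and 0.05 for the Cdk2 regulators. With the replicate block, 19 of the 22 axis genes were called lower there, among them Sycp2 (blocked FDR 4.77e-08), as were 2 of the 6 entry regulators, Meioc (FDR 3.85e-09) and Stra8 (FDR 0.000331), and 2 of the 12 capping genes, Tinf2 (FDR 9.12e-05) and Fbxo47 (FDR 0.000305). The block called no gene of the LINC, dynein and Cdk2 regulator lists, and no gene of the 6 lists higher. Over all genes tested in Thy1+ cells, it called 4.92% lower and 3.2% higher.

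**Figure D4:**
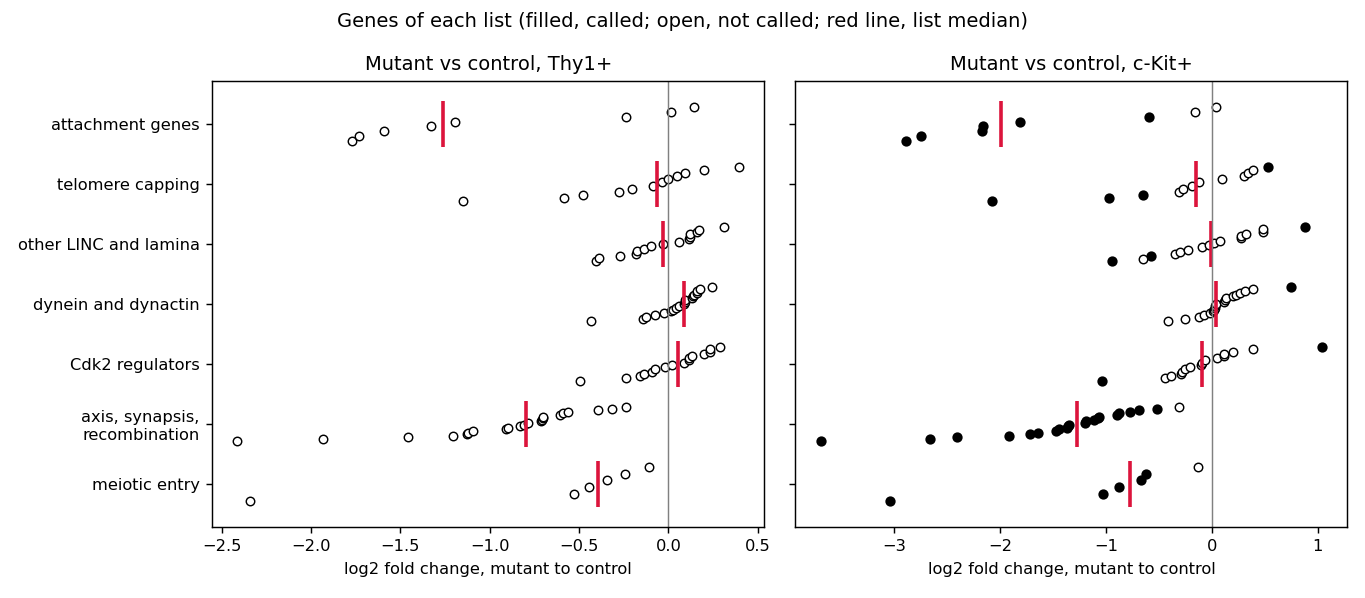
Log2 fold change of mutant to control (horizontal axes) of every tested gene of the 8 attachment genes and 6 lists of partners in Thy1+ and c-Kit+ cells; filled points were called and red lines are list medians. In c-Kit+ cells the attachment genes (median -1.99) and the axis genes (median -1.27) lay to the left, and the lists of dynein, LINC and Cdk2 regulator genes spread around 0.

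The mean standardised log2 level of Majin, Terb1 and Terb2 over the 12 libraries was compared with 14192 genes with a mean of at least 1 on the log2(CPM + 0.5) scale. The 5 genes most like it, by Pearson's r over 12 libraries that share their group structure, were Inca1, an inhibitor of cyclin-dependent kinases (0.996), Rad21l (0.993), the recombinase gene Dmc1 (0.993), Tex101, a germ cell surface protein (0.992), and Sycp2 (0.992). Inca1 had a mean of 17 ± 5.94 and 6.14 ± 1.4 CPM in Thy1+ controls and mutants and of 40.4 ± 11 and 9.24 ± 1.07 CPM in c-Kit+ controls and mutants. Among the members, Spdya (0.988) and Kash5 (0.976) followed the profile closely, Sun1 (0.797) and Cdk2 (0.521) less so, and Sun2 ran opposite to it (-0.741).

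**Figure D5:**
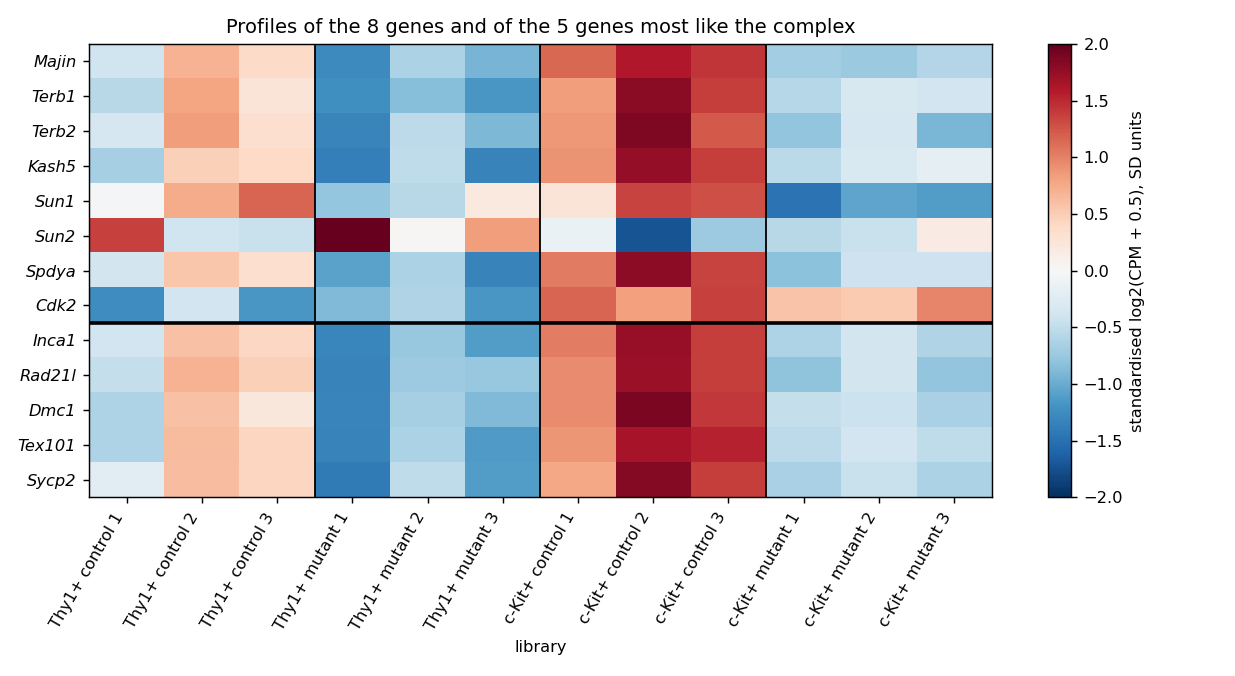
Standardised log2(CPM + 0.5) of the 8 genes (above the line) and of the 5 genes most like the mean of Majin, Terb1 and Terb2 (below the line) in the 12 libraries, in SD units by colour. Majin, Terb1, Terb2, Kash5, Spdya and the 5 genes below all have their highest value in c-Kit+ control replicate 2 and low values in the mutants, whereas Sun2 has its highest value in Thy1+ mutant replicate 1.

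Markers of other cells moved with the genotype. The summed level of 8 germ cell markers was 2300 to 2710 CPM in c-Kit+ controls and 1840 to 2140 CPM in c-Kit+ mutants, and 0 of the 8 were called. All 8 were lower, with log2 fold changes from -0.453 to -0.193, under the minimum for a call. Some had an FDR under 0.05, among them Dazl (-0.453, FDR 0.00173) and Tex19.1 (-0.407, FDR 0.00264). The Sertoli cell sum was 528 to 1390 CPM in controls and 2180 to 2420 CPM in mutants (7 of 8 called higher), and the Leydig cell sum was 626 to 1220 and 1160 to 2000 CPM (4 of 6). The stromal sum was 1790 to 2240 and 3250 to 4320 CPM (6 of 6), the endothelial sum 50 to 69.5 and 104 to 164 CPM (5 of 5), the peritubular myoid sum 46.1 to 63.9 and 91.3 to 112 CPM (3 of 5), the macrophage sum 15.5 to 44.1 and 38.4 to 57.7 CPM (0 of 6), and the mast cell sum 12.5 to 33.5 and 41.9 to 59.1 CPM (3 of 4 tested). In Thy1+ cells the germ cell sum was 1490 to 2170 CPM in controls and 1120 to 1810 CPM in mutants, the Sertoli cell sum 408 to 1960 and 826 to 2540 CPM, and the stromal sum 11000 to 14300 and 12300 to 18900 CPM. Without a block no marker was called there. With the replicate block that called 5 of the attachment genes, 6 of the 8 Sertoli cell markers were called higher, among them Amh (blocked log2 fold change 1.19, FDR 1.92e-06), where 3.2% of all genes tested were. The Sertoli cell sum was higher in the mutant of each replicate number, 2540 against 1960, 826 against 408 and 869 against 439 CPM. The block also called 1 stromal (Lum), 1 macrophage (Adgre1) and 1 mast cell marker (Mcpt4) higher and 1 germ cell marker (Tex19.1) lower. The mast cell gene Fcer1a was at 0 in at least 1 library of every group, and no other marker was at 0 in any library. In these bulk samples, fewer cells of a type and less RNA per cell cannot be told apart.

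Set against the germ cell sum of the same library, Majin was 0.729% to 0.981% in c-Kit+ controls and 0.136% to 0.188% in mutants, and 0.276% to 0.57% and 0.148% to 0.206% in Thy1+ cells. Spdya was 0.478% to 0.838% and 0.0917% to 0.156% in c-Kit+ cells. Scaled to the germ cell markers, the log2 fold changes in c-Kit+ cells were -2.52 for Majin, -2.37 for Spdya, -1.81 for Terb2, -1.79 for Terb1 and -1.43 for Kash5, and all 5 stayed called. Whether the somatic markers take part in these differences was not tested beyond this scaling.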

How the data were processed

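Poly(A) RNA of 12 libraries, 3 in each of 4 groups, was sequenced in read pairs. The authors used Trimmomatic 0.39 for trimming, HISAT2 2.1.0 for alignment (mm10) and featureCounts (2.0.3 in the file header) on RefSeq exons. They deposited raw counts of each gene. The command sets no strand and does not ask for read pairs, so both reads of a pair were counted, and reads on several genes were left out. Rows whose gene ID matched no symbol held 0.511% to 0.776% of counts.

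Groups came from the sample labels. Counts were tested with edgeR 4.0.16 in R 4.3.3 (quasi-likelihood F test, TMM, filterByExpr, Benjamini-Hochberg over all genes tested) on the libraries of each comparison, and on all 12 for the interaction (called at FDR under 0.05 alone). CPM used TMM-scaled library sizes. The genes and lists were chosen with earlier results of these data known. All 8 genes were named, and from each list of partners the genes called in c-Kit+ cells (at most the 4 with the largest change) and fixed direct partners, with the 5 genes closest in profile. The motifs and ratios were chosen after the data were seen. Alternatives were the exact test, DESeq2 1.42.0, other scalings and filters, a fit of all libraries, no fold minimum, a replicate block, and each library left out. The steps were tested on simulated data.

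Labels do not say what a replicate number means. Deviations from group means correlated between same-numbered libraries at 0.266 to 0.49 in Thy1+ cells, 0.101 to 0.125 in c-Kit+ cells and 0.134 to 0.298 between controls. All were over the limit of 0.1 and above other pairs, so these libraries were taken as paired from the data. Between mutants the correlations were 0.0211 to 0.204, and those libraries were not taken as paired. Low correlations do not show that they came from different testes, given the sort in sequence. Tests between populations and of the interaction that hold no block treat libraries as independent that may share testes. The main tests held no block in any comparison, also where libraries were taken as paired, and the replicate block was run as an alternative. In Thy1+ cells the common coefficient of variation between libraries was 20.9% without the block and 8.3% with it. A gene not called there without the block is thus not shown to be unchanged. ChIP samples were not analysed here.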

Additional observations from a re-analysis of the deposited data

How the results depend on the processing

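In c-Kit+ cells the number of attachment genes called between genotypes was 6 under every alternative except germ cell marker scaling (5). In Thy1+ cells it was 0, and 3 by the exact test, 5 by DESeq2, 3 in a fit of all 12 libraries and 5 with the replicate block, while every fit without a library gave 0. No share of all genes is given for the exact test, DESeq2 and the fit of all 12 libraries. Their counts show only that the calls depend on the method. Between controls it was 5, with 4 to 6 under other scalings, 6 with no minimum on the fold change and 2 to 6 without single libraries. Between mutants it was 1, with 2 by DESeq2, 2 with germ cell marker scaling, 2 with no minimum on the fold change, 2 with the replicate block, 0 in the fit of all 12 libraries and 0 to 3 without single libraries. The interaction gave 0 under every alternative, and the block changed no other count. Germ cell marker scaling moved the median log2 fold change of all genes to 0.386 (Thy1+) and 0.367 (c-Kit+) between genotypes and to -0.552 (controls) and -0.547 (mutants) between populations, and the values above are to be read against that shift. In c-Kit+ cells it took calls higher and lower from 2542 and 1270 to 5392 and 454, between controls from 1229 and 3594 to 90 and 6785, and between mutants from 872 and 2653 to 66 and 5178. Signs reversed with it for Sun1 (0.137) in Thy1+ cells, Cdk2 (0.198) in c-Kit+ cells, Sun1 (-0.465) and Cdk2 (-0.054) between controls, and Majin (-0.186), Terb2 (-0.31) and Cdk2 (-0.243) between mutants, and with library size only for Cdk2 (-0.019) in Thy1+ cells. Without single libraries the log2 fold change ran from -0.04 to 0.093 for Cdk2 in Thy1+ cells, from -0.036 to 0.103 for Sun2 in c-Kit+ cells, from -0.019 to 0.463 for Terb2 between mutants and from -0.162 to 0.061 for Sun2 in the interaction. None of these reversed values belonged to a call. The cause was not tested. Over all genes, the block gave 558 calls higher and 856 lower in Thy1+ cells (0 and 0 without it) and 422 and 24 in the interaction (0 and 0).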
